A study of Rattus norvegicus with 10 samples.

Results

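The cytochrome P450 genes of the array, with the Cyp2b genes and 4 others left out, were followed in livers of sham rats and of rats at 4 times, from 1 h to 24 h, after a burn. A probe set was a member when the probe table of the array gave it a single gene symbol that began with Cyp and a digit. Symbols beginning with Cyp2b were left out, as were Cyp7a1, Cyp7b1, Cyp27a1 and Cyp51, which serve bile acid and sterol synthesis. Of the 8799 probe sets, 84 had a single Cyp symbol and 67 were members, for 41 genes in 21 subfamilies. A further 13 probe sets named several genes, a Cyp gene among them, and were not members. The rule used gene names only and no measured value, but it was set with earlier results of these data known.

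Cytochrome P450 enzymes are heme proteins that insert an oxygen atom into their substrates. Those of the endoplasmic reticulum take electrons from P450 reductase (Por), and most liver P450s oxidise drugs, steroids and fatty acids. Enzymes of the mitochondria and of the steroid and vitamin D pathways mostly work in the adrenal cortex, gonads and kidney. In the adult rat liver several Cyp2c, Cyp2a and Cyp3a genes differ between the sexes, under the control of the pattern of growth hormone release, and nuclear receptors and liver transcription factors such as Hnf4a, the C/EBP proteins and Foxa2 support many P450 promoters.

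The series held 10 arrays in 5 groups of 2. One group was control liver labelled sham or 0 h, and the others were livers taken 1, 4, 8 and 24 h after the rats received a burn. No control liver was taken at the burn times. Effects of the burn therefore cannot be told apart from those of elapsed time or time of day. The labels give no strain, sex, age, burn size or treatment, and do not tie the arrays to animals. Every p-value therefore sets a difference between groups only against the spread of these arrays, shared by the 5 groups. That spread may be technical. All values are intensities on a linear scale as deposited, 1 per probe set and array. In RNA from whole liver, fewer cells of a type and less RNA per cell cannot be told apart.

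The 250 bases before the start of transcription are shown for 4 genes, 1 from each of the Cyp2c, Cyp1a, Cyp2e and Cyp3a subfamilies, whose called members are described below; they were chosen with those calls known. Sequences are from RefSeq (GRCr8), read 5′ to 3′ on the strand of the gene, and the windows are Cyp2c11 (chr1:246174966-246175215, plus strand), Cyp1a2 (chr8:66978150-66978399, minus strand), Cyp2e1 (chr1:205269717-205269966, plus strand) and Cyp3a23-3a1 (chr12:14398804-14399053, minus strand). Capitals mark TATAAA on the strand of the gene and AGGTCA on either strand, and likewise the motif ATTGAT and the motif GTTAAT.
Cyp2c11: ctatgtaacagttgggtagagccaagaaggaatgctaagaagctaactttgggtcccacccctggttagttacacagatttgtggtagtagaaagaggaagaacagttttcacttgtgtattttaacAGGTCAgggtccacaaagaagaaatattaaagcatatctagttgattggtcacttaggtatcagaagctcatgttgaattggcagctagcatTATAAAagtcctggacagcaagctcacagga
Cyp1a2: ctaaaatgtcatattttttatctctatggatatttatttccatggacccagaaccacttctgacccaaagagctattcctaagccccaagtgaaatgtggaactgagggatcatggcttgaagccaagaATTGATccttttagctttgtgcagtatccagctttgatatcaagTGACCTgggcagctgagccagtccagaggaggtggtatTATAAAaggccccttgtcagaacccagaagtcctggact
Cyp2e1: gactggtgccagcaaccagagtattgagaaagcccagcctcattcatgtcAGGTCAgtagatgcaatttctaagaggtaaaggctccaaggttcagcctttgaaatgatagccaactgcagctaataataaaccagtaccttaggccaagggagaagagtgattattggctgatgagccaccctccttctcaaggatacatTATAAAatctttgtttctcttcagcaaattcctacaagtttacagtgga
Cyp3a23-3a1: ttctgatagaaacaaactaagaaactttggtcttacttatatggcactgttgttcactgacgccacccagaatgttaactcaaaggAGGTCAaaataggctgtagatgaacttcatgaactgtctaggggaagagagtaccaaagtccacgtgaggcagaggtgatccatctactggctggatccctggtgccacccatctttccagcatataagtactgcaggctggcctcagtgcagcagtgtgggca

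TATAAA, the TATA box core, ended 26 bases before the start in Cyp2c11, 34 bases before it in Cyp1a2 and 44 bases before it in Cyp2e1, and these letters were not in the window of Cyp3a23-3a1. AGGTCA, the half-site of many nuclear receptors, was in all 4 windows, in Cyp1a2 as its reverse complement. ATTGAT, the core of the Hnf6 site, was in the window of Cyp1a2.

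Of the 41 genes, 31 had a window among the 33469 of the table, and 7 motifs were searched in all of them. TATAAA was in 10 member windows (32.3%) and in 8.06% of all windows, and AGGTCA was in 10 (32.3%) against 14.1%. ATTGAT was in 5 (16.1%) against 7.1%, and GTTAAT, an Hnf1 half-site, was in 3 (9.68%) against 6.45%. TTNNGNAA, a C/EBP motif, was in 17 (54.8%) against 37.2%, and TGTTTNC, a Foxa motif, was in 11 (35.5%) against 18.3%. GCGTG, the core of the xenobiotic response element bound by the aryl hydrocarbon receptor, was in 5 (16.1%) against 25.9%, and Cyp1b1 was among those 5. TATAAA was searched on the strand of the gene and the others on both strands. The ATTGAT windows were those of Cyp2c7, Cyp2c12, Cyp2c13, Cyp4f1 and Cyp1a2. A match is a description of the letters and not a measured site.

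The liver label was checked against 9 measured hepatocyte marker genes, whose summed intensity over 22 probe sets lay between 486719 and 727979.6 on the 10 arrays. This sum was 556154 to 639584 in sham and higher at 8 h, at 699739 to 727980. Of their 20 tested probe sets, limma called 1, 3 and 3 higher at 4, 8 and 24 h, against 2.37%, 1.55% and 3.94% of all tested probe sets. At 1 h 0 were called higher, and 0 were called lower at any time. Genes for pancreatic enzymes moved with the groups: 12 of 13 probe sets of 11 such genes were called higher at 1 h, 9 were called lower at 4 h, 4 higher at 8 h and 10 lower at 24 h. Their summed intensity was 9505.5 to 10242 in sham, 45024 to 46659.9 at 1 h, 2065 to 2259 at 4 h, 12977 to 13658 at 8 h and 2026 to 2439 at 24 h, and none was at 0. The part of this in the P450 results was not tested.

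Of the 67 members, 51 passed the filter on low values, for 33 genes in 16 subfamilies. A passing probe set lay above the median of its array on at least 2 of the 10 arrays. Values under a floor of 36.4 were raised to it before log2 was taken, and 50 of the 51 tested members were above the floor on every array. The 5 groups were fitted in 1 limma model, and calls were made where the adjusted p, by limma's moderated statistic (two-sided) with Benjamini-Hochberg adjustment over the 5285 tested probe sets, was under 0.05.

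**Figure D1:**
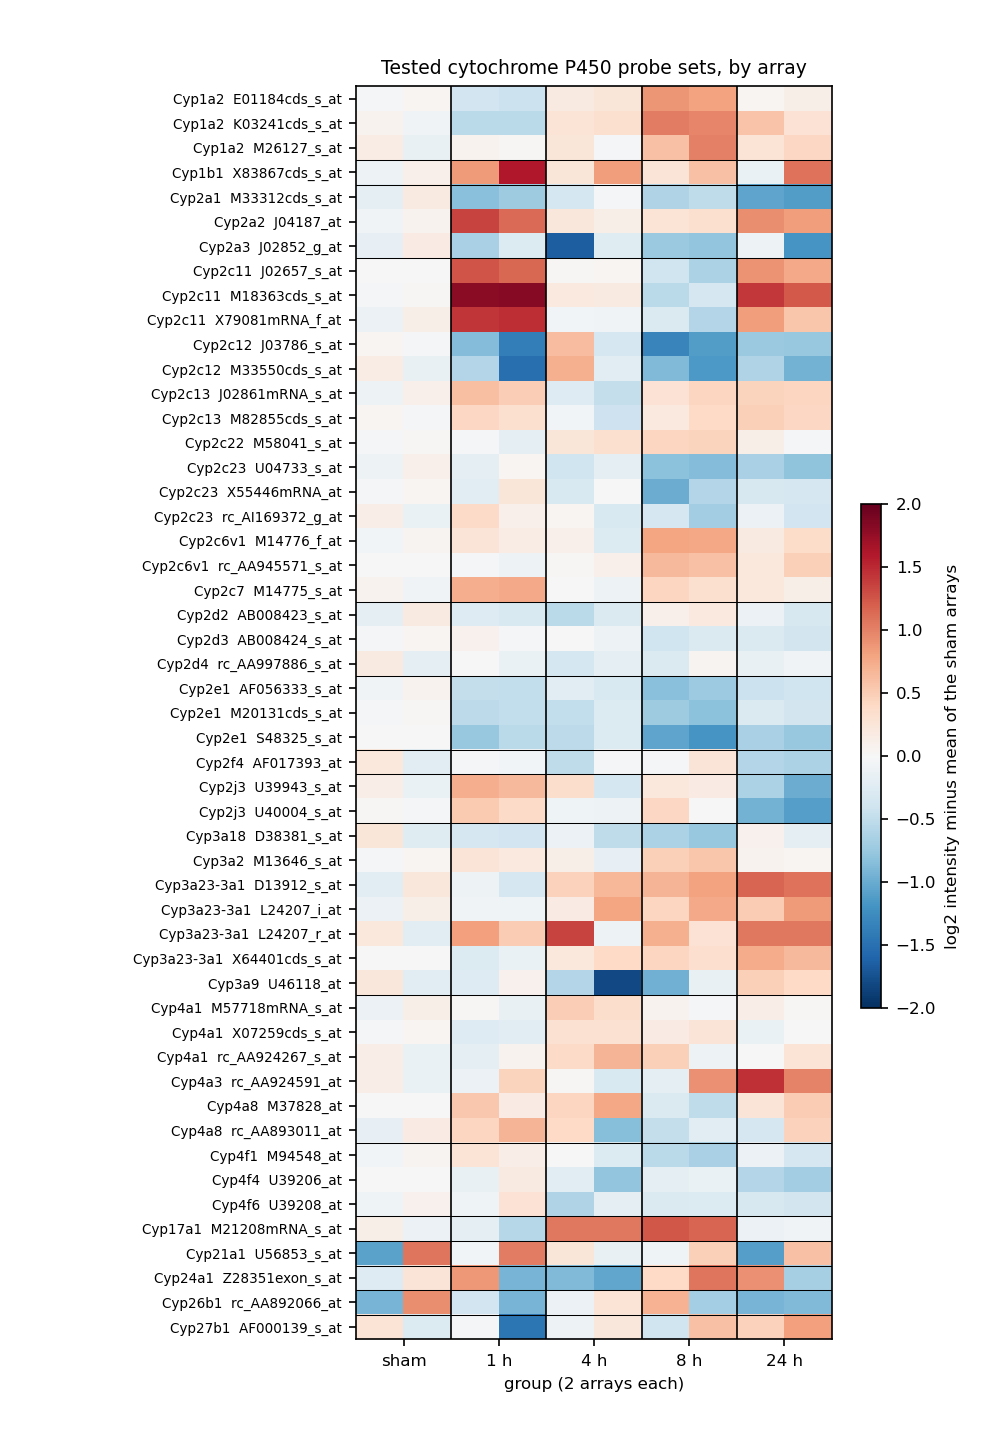
Each row is 1 of the 51 tested P450 probe sets and each column 1 of the 10 arrays, with 2 per group. Colour gives log2 intensity minus the mean of the sham arrays, and horizontal lines separate the subfamilies. The 3 Cyp2c11 rows and Cyp2a2 are red at 1 h and at 24 h, Cyp2e1 is blue at every burn time, and Cyp17a1 is red at 4 h and 8 h.

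At 1 h, 4 of the 51 members were called higher (7.84%), against 0.795% of all tested probe sets called higher and 1.44% called in either direction. They were the 3 probe sets of Cyp2c11 and the 1 of Cyp2a2. By the limma test 0 members were called lower, where 0.643% of all probe sets were, and 8 members were lower and 9 higher at an unadjusted p under 0.05. At 4 h, Cyp17a1 alone was called (1 member, 1.96%, against 4.35% of all). It was higher, as were 2.37% of all probe sets, and by limma 0 members were called lower, against 1.99% of all; 3 were lower and 4 higher at an unadjusted p under 0.05.

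At 8 h, 3 members were called higher and 4 lower (13.7%, against 3.50% of all, of which 1.55% higher and 1.95% lower), with Cyp1a2 and Cyp17a1 above sham and Cyp2e1 and Cyp2c23 below it. At 24 h, 5 were called higher and 4 lower (17.6%, against 10.3% of all, of which 3.94% higher and 6.34% lower), with Cyp2c11, Cyp2a2 and Cyp3a23-3a1 above sham and Cyp2a1, Cyp2c23, Cyp2e1 and Cyp2j3 below it. The moderated F test over the 4 burn times called 16 members (31.4%, against 15.3%). In all, 15 members were called at 1 or more times against sham, 18 when the F test was included, and 30 were not called in any comparison, steps between neighbouring times included.

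The median log2 change of the 51 members was -0.05, -0.04, 0.12 and 0.06 at the 4 times in turn. Over all tested probe sets it was 0.01, -0.04, -0.10 and -0.04. Single members ranged from -1.22 to 1.20 at 8 h and from -1.09 to 1.32 at 24 h, so the median hid changes in both directions. Both arrays of a burn time lay above both sham arrays for 16, 16, 20 and 20 members at 1, 4, 8 and 24 h, and below them for 16, 14, 20 and 15. The same was seen for 21.7%, 20.1%, 18.6% and 24.6% of all tested probe sets (above) and 21.0%, 26.0%, 29.7% and 29.4% (below).

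Between neighbouring times, 2 of the 51 members were called higher from 1 h to 4 h, where 2.46% of all probe sets were, and 6 lower, against 2.54% of all. From 4 h to 8 h, 4 were higher (3.48% of all) and 3 lower (4.81% of all), but after quantile normalization 0 were higher and 3 lower. Those 3 were not the same: Cyp2c12 and Cyp4a8 were lost, and the 3 were then all probe sets of Cyp2e1. From 8 h to 24 h, 3 were higher (5.81% of all) and 3 lower (5.94% of all). The comparisons share arrays and are not independent.

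**Figure D2:**
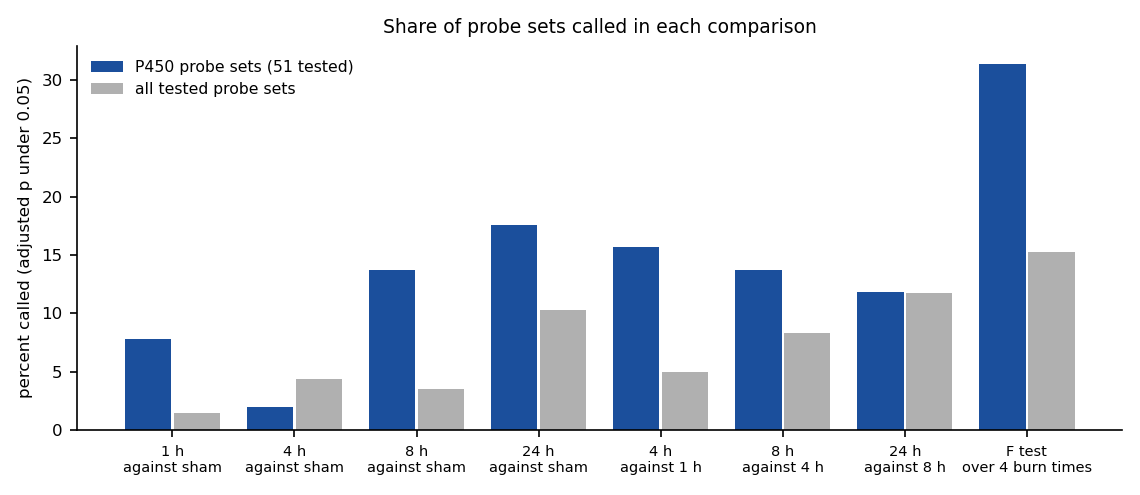
Bars give the percent of probe sets called in each comparison on the y axis, for the 51 tested P450 probe sets and for all 5285 tested probe sets. The P450 share runs from 1.96% at 4 h against sham to 31.4% in the F test.

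These calls rest on the spread shared by the 5 groups. When only the 4 arrays of a comparison were fitted, 3 of the 42 calls (21 against sham and 21 between neighbouring times) remained, all 3 of them of Cyp2c11 between neighbouring times. Of the 42, 9 held without each single array, and another 9 were lost whichever array was left out. No call changed direction under any setting tried. On arrays of this kind, the letter s before the ending of a probe set name marks probes that can match more than 1 transcript. Of the 67 members, 46 carry a letter, and for 39 of them it is s. The other letters do not all have that meaning. Values of the close relatives within Cyp2c, Cyp2a, Cyp3a and Cyp4a may therefore be mixed, and several probe sets of a gene are repeated readings of the same RNA and not replicates.

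Cyp2c11, a steroid hydroxylase that is the main male-specific P450 of the adult rat liver, was higher than sham at 1 h, near sham at 4 h and higher again at 24 h. On M18363cds_s_at the intensities were 1238 and 1290.1 in sham, 4412 and 4448 at 1 h, 1442 and 1438 at 4 h, 871 and 1005 at 8 h, and 3366 and 2956 at 24 h. Both 1 h arrays and both 24 h arrays lay above every array of the other 3 groups. The 1 h rise was 3.51-fold (log2 change 1.81, SE 0.15, adjusted p = 0.00243) and the 24 h rise 2.5-fold (log2 change 1.32, SE 0.15, adjusted p = 0.00319), and both calls held without each array. Folds are ratios of geometric means after the floor.

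The other 2 probe sets of Cyp2c11 moved likewise at 1 h. J02657_s_at read 3609 and 3632 in sham, 8654 and 7995 at 1 h, 3675 and 3709.7 at 4 h, 2755 and 2329.9 at 8 h, and 6733 and 6135 at 24 h, which is 2.3-fold above sham at 1 h (log2 change 1.20, SE 0.16, adjusted p = 0.0133) and 1.78-fold above it at 24 h (log2 change 0.83, SE 0.16, adjusted p = 0.0185). X79081mRNA_f_at read 601 and 699 in sham, 1737 and 1797 at 1 h, 621 and 615 at 4 h, 533 and 431 at 8 h, and 1150.2 and 953 at 24 h, 2.73-fold above sham at 1 h (log2 change 1.45, SE 0.18, adjusted p = 0.0125). At 24 h the last was not called (log2 change 0.69, SE 0.18, adjusted p = 0.0572), although both arrays were above sham. At 8 h both arrays were below both sham arrays on all 3 probe sets, with log2 changes of -0.43 to -0.51 and adjusted p of 0.137 to 0.263. The 1 h calls of J02657_s_at and X79081mRNA_f_at were lost when any array of sham or of 1 h was dropped (the adjusted p then reached 0.0989 and 0.0893), and the 24 h call of J02657_s_at without either sham or either 24 h array (up to 0.0994).

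The fall of Cyp2c11 from 1 h to 4 h was called on all 3 probe sets, as was the rise from 8 h to 24 h. From 1 h to 4 h the log2 changes were -1.62 on M18363cds_s_at (adjusted p = 0.00137), -1.52 on X79081mRNA_f_at (0.00451) and -1.17 on J02657_s_at (0.0073). The first 2 held without each array, and the last was lost without the first 1 h array (0.0593). From 8 h to 24 h they were 1.75 (0.00099), 1.13 (0.0102) and 1.34 (0.00295) in the same order. Here X79081mRNA_f_at was lost without the second 8 h or the first 24 h array (up to 0.0634). In the same arrays the pancreatic enzyme genes were highest at 1 h but lowest at 4 h and 24 h; their part in these values was not tested.

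Cyp2a2, another male-specific steroid hydroxylase, was read by a probe set without a letter code. J04187_at gave 1619 and 1780.4 in sham, 4327 and 3706 at 1 h, 1994 and 1843 at 4 h, 2048 and 2109.7 at 8 h, and 3235 and 3027 at 24 h. It rose 2.36-fold at 1 h (log2 change 1.24, SE 0.16, adjusted p = 0.0125) and 1.84-fold at 24 h (log2 change 0.88, SE 0.16, adjusted p = 0.015), and fell between 1 h and 4 h (log2 change -1.06, SE 0.16, adjusted p = 0.0115). The 1 h arrays were the highest of the 5 groups and the 24 h arrays came next, with no overlap between them. Each call against sham was lost without either array of either group compared (up to 0.0903 at 1 h and 0.0839 at 24 h), and the step to 4 h without the first 1 h or the second 4 h array (up to 0.0788).

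Cyp2a1, a steroid hydroxylase that is higher in female liver, was lower than sham at 24 h. M33312cds_s_at read 12238 and 15556 in sham, 7759 and 8400.3 at 1 h, 10831 and 13613 at 4 h, 9133 and 9726 at 8 h, and 6671 and 6327 at 24 h, a 2.12-fold fall at 24 h (log2 change -1.09, SE 0.19, adjusted p = 0.0145). Its 1 h arrays were also below both sham arrays but not called (log2 change -0.77, SE 0.19, adjusted p = 0.154). The 24 h call was lost without the second sham array, or without either 24 h array (up to 0.0791). Cyp2a3, mainly a P450 of lung and nose, was low and scattered: J02852_g_at ran from 68.6 to 240.4 with no call, and J02852_at, at 7.1 to 22.9, was not tested. Within Cyp2a, then, 1 gene rose and another fell at 24 h.

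Cyp2c7, which is higher in female liver, read 14986 and 13485 in sham, 23503 and 23917 at 1 h, 14194 and 13201 at 4 h, 19189 and 17722 at 8 h, and 16536 and 15352 at 24 h on M14775_s_at. It was called by the F test (adjusted p of the F test = 0.0414) and not against sham at any single time, the largest difference being at 1 h (log2 change 0.74, SE 0.15, adjusted p = 0.0768). Both 1 h arrays were above the other 8. The fall from 1 h to 4 h was called (log2 change -0.79, SE 0.15, adjusted p = 0.0276) and was lost without any of the 1 h, 4 h or 24 h arrays (up to 0.142).

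Cyp2c13, a male-predominant steroid hydroxylase, read 6729 and 7731 in sham, 10956 and 10124 at 1 h, 6019.9 and 5176 at 4 h, 8774 and 9669.6 at 8 h, and 9821 and 9714 at 24 h on J02861mRNA_s_at. The F test called it (adjusted p of the F test = 0.033), with the 4 h arrays the lowest of the 10 and the 1 h arrays the highest. The fall from 1 h to 4 h (log2 change -0.92, SE 0.16, adjusted p = 0.0227) and the rise from 4 h to 8 h (log2 change 0.72, SE 0.16, adjusted p = 0.0403) were called. The fall was lost without any of the 1 h, 4 h or 24 h arrays (up to 0.123), and the rise whichever array was left out (up to 0.161) and after quantile normalization (0.0517). On M82855cds_s_at, which ran from 9177 to 16995, the 4 h arrays were again the lowest, but the F test did not call it (adjusted p = 0.106).

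Cyp2c12, the female-specific counterpart of Cyp2c11, differed between the arrays of a group at 1 h and at 4 h. J03786_s_at read 1816 and 1731 in sham, 973 and 679 at 1 h, 2713 and 1412 at 4 h, 707 and 816 at 8 h, and 1057 and 1052 at 24 h. At 1 h both arrays were below both sham arrays, a log2 change opposite in sign to that of Cyp2c11, and neither that (log2 change -1.13, SE 0.32, adjusted p = 0.212) nor the lower 8 h values (log2 change -1.22, SE 0.32, adjusted p = 0.0971) were called. Its fall from 4 h to 8 h was called (log2 change -1.37, SE 0.32, adjusted p = 0.0458), and was lost without any array other than the second 4 h array (up to 0.168), after quantile normalization (0.0635) and with no filter (0.0873). M33550cds_s_at also had its highest mean at 4 h and its lowest at 1 h and 8 h, with log2 changes of -1.05 at 1 h and -1.02 at 8 h (SE 0.40, adjusted p = 0.348 and 0.233). The first 4 h array was well above the second on both probe sets.

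**Figure D3:**
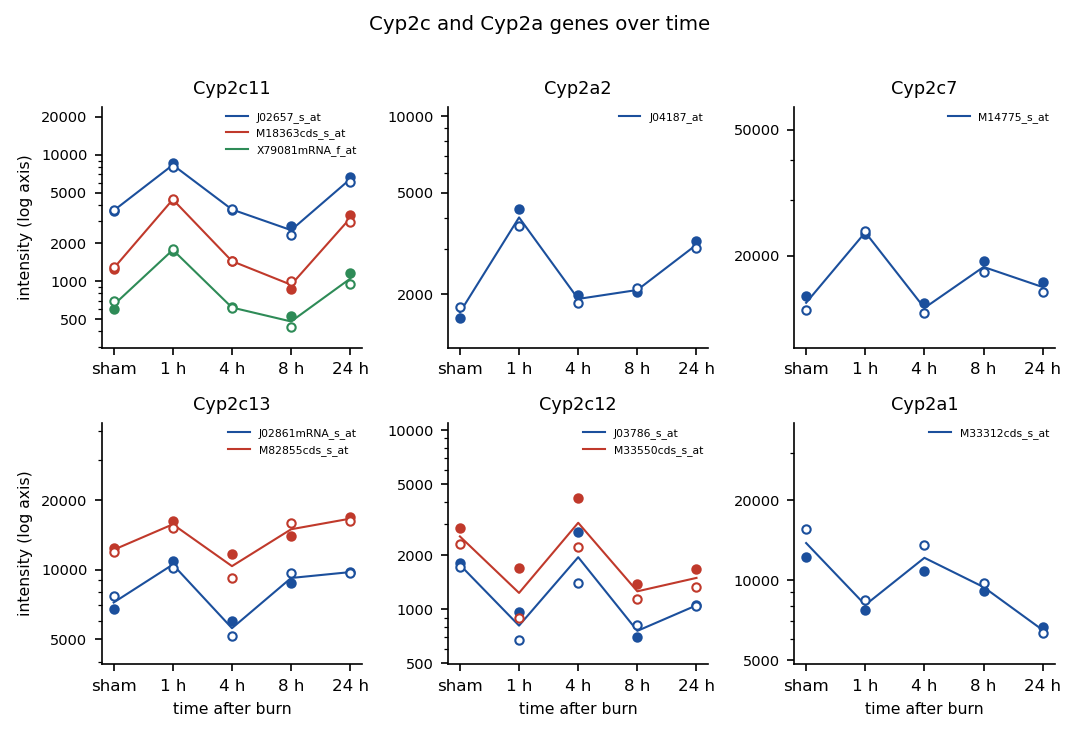
Intensity (log axis) of 6 Cyp2c and Cyp2a genes in sham and at 1, 4, 8 and 24 h, spaced evenly; filled and open points are the first and second array of a group and lines join the means of their log values. Cyp2c11 on M18363cds_s_at stands at 4412 and 4448 at 1 h against 1238 and 1290 in sham, and Cyp2a1 is lowest at 24 h, at 6671 and 6327.

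Cyp2c23, an arachidonic acid epoxygenase best known from the kidney, was lower late after the burn on 1 of its 3 probe sets. U04733_s_at read 13703 and 15790.1 in sham, 13049 and 15116 at 1 h, 11180.1 and 13022 at 4 h, 8359.5 and 8085 at 8 h, and 9340.2 and 8434 at 24 h. The 8 h arrays and the 24 h arrays lay below all the sham, 1 h and 4 h arrays. The fall was 1.79-fold at 8 h (log2 change -0.84, SE 0.17, adjusted p = 0.0474) and 1.66-fold at 24 h (log2 change -0.73, SE 0.17, adjusted p = 0.0399), and each call was lost whichever array was left out (up to 0.175 and 0.174). The other 2 probe sets were not called: at 8 h rc_AI169372_g_at had a log2 change of -0.51 (SE 0.23, adjusted p = 0.278) and X55446mRNA_at one of -0.79 (SE 0.23, adjusted p = 0.123), with both arrays below sham.

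Cyp2c6v1, a drug-metabolising P450 of both sexes, was highest at 8 h on both probe sets. M14776_f_at read 10513 and 11322 in sham, 13058 and 12035 at 1 h, 11741 and 9003 at 4 h, 18839 and 18599.5 at 8 h, and 12315 and 14035 at 24 h. Against sham the 8 h difference was not called (log2 change 0.78, SE 0.18, adjusted p = 0.0684), but the rise from 4 h to 8 h was (log2 change 0.86, SE 0.18, adjusted p = 0.0321). That call was lost without any array other than the first 4 h array (up to 0.127) and after quantile normalization (0.0703). On rc_AA945571_s_at the 8 h arrays read 16126 and 15375 against 10381 and 10197 in sham (log2 change 0.61, SE 0.16, adjusted p = 0.0881). Cyp2c22, on M58041_s_at, was also highest at 8 h, at 12473 and 12576 against 9104 and 9375 in sham (log2 change 0.44, SE 0.15, adjusted p = 0.17).

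Cyp1a2, which oxidises caffeine and aromatic amines, was higher at 8 h on 2 of its 3 probe sets. E01184cds_s_at read 3891 and 4082 in sham, 3045 and 2956 at 1 h, 4532 and 4713 at 4 h, 7336 and 6985 at 8 h, and 4101 and 4309 at 24 h, a 1.8-fold rise at 8 h (log2 change 0.84, SE 0.14, adjusted p = 0.0268). K03241cds_s_at read 1885 and 1692 in sham, 1227 and 1226 at 1 h, 2159 and 2241 at 4 h, 3641 and 3523 at 8 h, and 2640.3 and 2170.2 at 24 h, a 2.01-fold rise (log2 change 1.00, SE 0.16, adjusted p = 0.025). On both, the 8 h arrays were the highest of the 10 and the 1 h arrays the lowest. The call of E01184cds_s_at was lost whichever array was left out (up to 0.124), and that of K03241cds_s_at on dropping any array of sham, 1 h, 4 h or 8 h (reaching 0.104). M26127_s_at read 5288 and 4313 in sham, 4989 and 4831 at 1 h, 5634 and 4633 at 4 h, 7187 and 9608 at 8 h, and 5785 and 6360.4 at 24 h. Its 8 h arrays were also the highest but lay further apart, and it was not called (log2 change 0.80, SE 0.21, adjusted p = 0.0961).

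The time course of Cyp1a2 had called steps in both directions. K03241cds_s_at rose from 1 h to 4 h (log2 change 0.84, adjusted p = 0.0289), lost on dropping any array of sham, 1 h, 4 h or 8 h (reaching 0.141). From 4 h to 8 h it rose by 0.70 (0.0417) and E01184cds_s_at by 0.63 (0.0374), both lost whichever array was left out (up to 0.154 and 0.141) and after quantile normalization (0.0554 and 0.0525). From 8 h to 24 h E01184cds_s_at fell (log2 change -0.77, adjusted p = 0.0147), lost without any 8 h or 24 h array (up to 0.0815).

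Cyp1a1, the most inducible target of the aryl hydrocarbon receptor, was too low to be tested. E00778cds_s_at read 37.3 and 35.3 in sham, 21.0 and 29.9 at 1 h, 19.7 and 39.0 at 4 h, 86.1 and 111 at 8 h, and 26.6 and 42.5 at 24 h. The 8 h arrays were above all others, of which the next reached 42.5, and 5 of the other 8 were under the floor of 36.4. With no filter on low values limma called it higher at 8 h (log2 change 1.41, SE 0.13, adjusted p = 0.00985). The size depends little on the floor, because the 1 sham array under it, at 35.3, was close to it. The SE and adjusted p depend on it more, because the 5 values raised to the floor, both of 1 h among them, lost their spread.

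Cyp1b1, a P450 of oestrogens and polycyclic aromatics found mainly outside the liver, had 1 tested probe set of 4. X83867cds_s_at read 68.7 and 79.4 in sham, 134 and 223 at 1 h, 87.7 and 131 at 4 h, 88.4 and 111 at 8 h, and 67.3 and 158 at 24 h. Its log2 changes were 1.23, 0.54, 0.42 and 0.48 at 1, 4, 8 and 24 h (SE 0.44, adjusted p 0.324, 0.63, 0.662 and 0.567), and the 24 h arrays differed by over 2-fold.

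Cyp2e1, which oxidises ethanol and small solvents, was lower than sham at 8 h on all 3 probe sets. S48325_s_at read 33117 and 33279 in sham, 19634 and 22835 at 1 h, 23191 and 27489.5 at 4 h, 16039 and 14650.0 at 8 h, and 21108 and 19678 at 24 h. All 8 burn arrays lay below both sham arrays, the 8 h arrays lowest. The 8 h fall was 2.17-fold (log2 change -1.11, SE 0.17, adjusted p = 0.0205), and at 24 h it was 1.63-fold (log2 change -0.70, SE 0.17, adjusted p = 0.0404). The 8 h call was lost without either sham or either 8 h array (up to 0.0959), and the 24 h call on dropping any array of sham, 1 h, 8 h or 24 h (reaching 0.161).

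The other Cyp2e1 probe sets, M20131cds_s_at and AF056333_s_at, had smaller changes of the same sign. Neither was called by limma at 24 h (log2 changes -0.33 and -0.42, adjusted p = 0.228 and 0.124). The step from 4 h to 8 h was not called on them either (adjusted p = 0.195 and 0.0738), although both were called after quantile normalization. M20131cds_s_at read 46706 and 48495 in sham, 33059.8 and 33829 at 1 h, 33717 and 39374 at 4 h, 29149 and 27096 at 8 h, and 38849 and 36823 at 24 h, 1.69-fold below sham at 8 h (log2 change -0.76, SE 0.15, adjusted p = 0.0452). AF056333_s_at read 16963 and 18723 in sham, 12809.7 and 12665 at 1 h, 15371 and 14407 at 4 h, 9958 and 10713 at 8 h, and 13225 and 13496 at 24 h, 1.73-fold below sham at 8 h (log2 change -0.79, SE 0.14, adjusted p = 0.0373). Again all 8 burn arrays were below both sham arrays. Both calls were lost whichever array was left out (up to 0.165 and 0.141). From 4 h to 8 h the fall of S48325_s_at was called (log2 change -0.72, adjusted p = 0.0428) and was lost whichever array was left out (up to 0.17).

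Cyp17a1, a hydroxylase and lyase of sex steroid synthesis in the gonads, was higher at 4 h and 8 h than at any other time. M21208mRNA_s_at, its single probe set, read 431 and 367 in sham, 352 and 268 at 1 h, 828 and 828 at 4 h, 945 and 889 at 8 h, and 365 and 381 at 24 h. The 4 h and 8 h arrays were above the other 6, with at least 828 against at most 431. The rise was 2.08-fold at 4 h (log2 change 1.06, SE 0.18, adjusted p = 0.0208) and 2.3-fold at 8 h (log2 change 1.20, SE 0.18, adjusted p = 0.0217). Both steps around it were called and held without each array: up from 1 h to 4 h (log2 change 1.43, SE 0.18, adjusted p = 0.00603) and down from 8 h to 24 h (log2 change -1.30, SE 0.18, adjusted p = 0.00602). The call at 4 h was lost without either sham or either 4 h array (up to 0.115), and that at 8 h on dropping any array of sham, 4 h or 8 h (reaching 0.096).

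Cyp11a1, Cyp11b2 and Star, 3 other genes of steroid hormone synthesis, were low in the same arrays. Cyp11a1, which cleaves the side chain of cholesterol, read 18.7 to 86.3 over the 10 arrays on J05156_s_at. Cyp11b2, aldosterone synthase, read 8.6 to 37.9 on D14097cds_s_at, and Star, the cholesterol carrier of adrenal and gonad, 5.3 to 96.1 on 2 probe sets. Summed over 15 probe sets, the list of 6 measured adrenal and gonad genes was at 8049 to 8119.5 in sham, 7509 to 9235 at 4 h and 6099 to 6594 at 8 h. Most of that sum came from Fdx1, Scarb1 and Inha, which were not low: Fdx1 read 920.5 to 2612 on D50436_at, Scarb1 1222 to 2372 on AF071495_s_at and Inha 545.6 to 1021 on M32754cds_s_at. Star and Nr5a1, the factor that defines steroid-making cells, stayed at or under 112 on every array. Lhcgr, also on the list, read up to 338.7 (in sham) on M63926mRNA_s_at and up to 272.9 (at 4 h) on M61211cds_s_at. Its other probe sets stayed at or under 143.3. The source of the Cyp17a1 signal was not tested. Cyp21a1, an adrenal steroid hydroxylase, was tested but scattered: U56853_s_at read 46.2 and 204 in sham, 93.4 and 198 at 1 h, 115 and 87.8 at 4 h, 91.2 and 135 at 8 h, and 45.4 and 146 at 24 h. Its log2 changes were 0.49, 0.05, 0.19 and -0.25 at 1, 4, 8 and 24 h (SE 0.81, adjusted p 0.882, 0.988, 0.932 and 0.891). Cyp19a1, aromatase, read 26.8 to 112.5 on M33986mRNA_at and was not tested.

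Cyp3a23-3a1, an oxidiser of steroids and drugs and a target of the pregnane X receptor, was higher at 24 h on 2 of its 4 probe sets. D13912_s_at read 2918 and 4029.6 in sham, 3206 and 2709 at 1 h, 4742 and 5444 at 4 h, 5483 and 5997 at 8 h, and 7687 and 7273 at 24 h, a 2.18-fold rise at 24 h (log2 change 1.12, SE 0.20, adjusted p = 0.0163). X64401cds_s_at read 9985 and 9845 in sham, 8179 and 9023 at 1 h, 11464 and 13062 at 4 h, 13389 and 12577 at 8 h, and 16539 and 15511 at 24 h, a 1.62-fold rise (log2 change 0.69, SE 0.15, adjusted p = 0.0317). On both, the 24 h arrays were the highest and the 4 h and 8 h arrays lay between them and sham. The first call was lost without the first sham array, or without either 24 h array (up to 0.0853), and the second on dropping any array of sham, 1 h, 8 h or 24 h (reaching 0.148) and after quantile normalization (0.0504). L24207_i_at (log2 change at 24 h 0.68, SE 0.26, adjusted p = 0.149) and L24207_r_at (1.06, SE 0.45, adjusted p = 0.195) were also above sham in both 24 h arrays and not called.

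The other Cyp3a genes were not called at any time. Cyp3a2, a male-predominant steroid hydroxylase, read 9980.4 and 10564 in sham, 12236 and 11764 at 1 h, 11159 and 9182 at 4 h, 14278 and 15067 at 8 h, and 10803 and 10535 at 24 h on M13646_s_at. It was highest at 8 h (log2 change 0.51, SE 0.16, adjusted p = 0.14) and near sham at 24 h, unlike the Cyp3a23-3a1 probe sets; the difference between the genes was not tested. Cyp3a18 on D38381_s_at ran from 1058 at 8 h to 2103 in sham, and Cyp3a9 on U46118_at from 65.6 at 4 h to 317.3 at 24 h.

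Cyp2j3, an arachidonic acid epoxygenase, was lower at 24 h. U40004_s_at read 1049 and 1018 in sham, 1489 and 1352 at 1 h, 975 and 964 at 4 h, 1373 and 1044 at 8 h, and 537 and 482 at 24 h, a 2.03-fold fall at 24 h (log2 change -1.02, SE 0.18, adjusted p = 0.0145). Its 24 h arrays were the lowest of the 10 and the drop from 8 h to 24 h was called (log2 change -1.24, SE 0.18, adjusted p = 0.00663), and held without each array. The call against sham was lost without either sham or either 24 h array (up to 0.0844). U39943_s_at read 956 and 792 in sham, 1439.9 and 1370.4 at 1 h, 1116 and 682 at 4 h, 1008 and 975 at 8 h, and 559 and 438 at 24 h. It was called by the F test (adjusted p of the F test = 0.0485) but not at 24 h (log2 change -0.81, SE 0.26, adjusted p = 0.101), where its arrays were again the lowest. Another probe set, U40000_at, read 5 to 65.8 and was not tested.

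**Figure D4:**
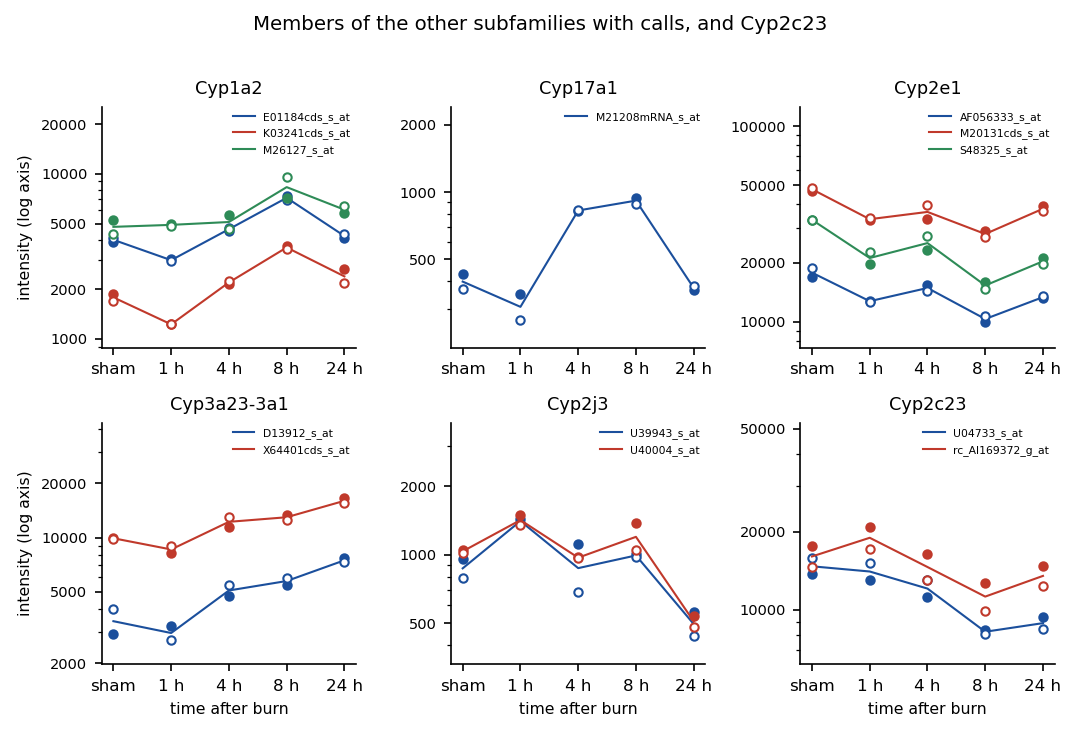
Intensity (log axis) of 6 P450 genes in sham and at 1, 4, 8 and 24 h, spaced evenly; filled and open points are the first and second array of a group, and lines join the means of their log values. Cyp17a1 stands at 828 to 945 at 4 h and 8 h, Cyp2e1 is lowest at 8 h on every probe set, and 3 low or uncalled probe sets (X55446mRNA_at, L24207_i_at and L24207_r_at) are not drawn.

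In 9 subfamilies with a tested member, 18 probe sets in all, limma called 0 against sham at any time. At an unadjusted p under 0.05, 1 was higher at 1 h (Cyp1b1), 2 were higher at 4 h (Cyp4a1 and Cyp4a8), 1 was lower at 8 h (Cyp4f1), and at 24 h 1 was higher (Cyp4a3) and 2 were lower (Cyp2f4 and Cyp4f4). Their log2 changes at 1 h spanned -0.74 to 1.23 and at 4 h -0.96 to 0.60. The later times gave -0.59 to 0.73 (8 h) and -0.91 to 1.23 (24 h). With 2 arrays per group, such changes could not be told from the spread of these arrays in this fit. With an intensity trend and robust variance, Cyp4f1 at 8 h and Cyp4a3 and Cyp4f4 at 24 h were called.

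Cyp4a genes, fatty acid hydroxylases under the control of Ppara, had 6 tested probe sets. Cyp4a1 on M57718mRNA_s_at read 3166 and 3762 in sham, 3504 and 3099.9 at 1 h, 4874 and 4419 at 4 h, 3628 and 3381 at 8 h, and 3772 and 3515 at 24 h, with log2 changes of -0.07, 0.43, 0.02 and 0.08 at 1, 4, 8 and 24 h (SE 0.17, adjusted p 0.924, 0.243, 0.967 and 0.826). Both 4 h arrays were the highest of the 10. On the other 2 Cyp4a1 probe sets both 4 h arrays were likewise above sham, with log2 changes of 0.31 (X07259cds_s_at, adjusted p = 0.33) and 0.53 (rc_AA924267_s_at, adjusted p = 0.337). Cyp4a3 on rc_AA924591_at was at 935 and 676 at 24 h against 371 and 311 in sham (log2 change 1.23, SE 0.39, adjusted p = 0.101). Cyp4a8 on M37828_at fell from 389 and 493 at 4 h to 236 and 203 at 8 h (log2 change -1.0, adjusted p = 0.0329). This step was lost without any array other than those of 1 h (up to 0.145) and after quantile normalization (0.0671), and rc_AA893011_at, at 73.7 to 212.6, did not have it (log2 change -0.12, adjusted p = 0.91).

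Cyp4f genes oxidise leukotrienes and long-chain fatty acids. Cyp4f1 on M94548_at read 5142 and 5543 in sham, 6419 and 5827 at 1 h, 5310.1 and 4428 at 4 h, 3688 and 3390.1 at 8 h, and 4933 and 4208 at 24 h, with log2 changes of 0.20, -0.14, -0.59 and -0.23 at 1, 4, 8 and 24 h (SE 0.17, adjusted p 0.727, 0.777, 0.123 and 0.477). Its 8 h arrays were the lowest of the 10. Cyp4f4 on U39206_at (988 to 1922) and Cyp4f6 on U39208_at (1788 to 3326) were lower than sham in both 24 h arrays without a call (log2 changes -0.65 and -0.35, adjusted p = 0.119 and 0.343). Cyp4f5 at 12.2 to 34.2 and Cyp4f17 at 23.8 to 122 were not tested.

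Cyp2d genes, which oxidise many amine drugs, stayed within a narrow range. Cyp2d2 on AB008423_s_at read 22762 and 29141 in sham, 21584 and 20956 at 1 h, 17681 and 21035 at 4 h, 27625 and 29571 at 8 h, and 23628 and 20694 at 24 h, with log2 changes of -0.28, -0.42, 0.15 and -0.22 at 1, 4, 8 and 24 h (SE 0.19, adjusted p 0.632, 0.311, 0.717 and 0.53). Cyp2d3 (5562 to 7782) and Cyp2d4 on rc_AA997886_s_at (1344 to 1939) had log2 changes between -0.34 and 0.03 at all 4 times. A second Cyp2d4 probe set, U48220_at, was not tested and read 39.5 to 250.9. Cyp2f4, best known for oxidising naphthalene in the lung, read 1078 and 811 in sham, 911 and 901 at 1 h, 659 and 919.5 at 4 h, 924 and 1121 at 8 h, and 625 and 606 at 24 h on AF017393_at, with log2 changes of -0.05, -0.26, 0.12 and -0.60 at 1, 4, 8 and 24 h (SE 0.23, adjusted p 0.965, 0.648, 0.83 and 0.151). Its 24 h arrays were the lowest of the 10.

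The P450s of vitamin D and retinoic acid were low and scattered. Cyp24a1, which inactivates vitamin D hormone, read 160.3 and 227 in sham, 349 and 101 at 1 h, 103 and 92.6 at 4 h, 251 and 401 at 8 h, and 359 and 121 at 24 h on Z28351exon_s_at, with log2 changes of -0.03, -0.96, 0.73 and 0.13 at 1, 4, 8 and 24 h (SE 0.69, adjusted p 0.997, 0.568, 0.62 and 0.943). Cyp27b1, which makes that hormone, read 162 and 110.0 in sham, 130.2 and 48.8 at 1 h, 124 and 156 at 4 h, 101 and 201 at 8 h, and 183 and 236 at 24 h on AF000139_s_at, with log2 changes of -0.74, 0.06, 0.10 and 0.64 at 1, 4, 8 and 24 h (SE 0.52, adjusted p 0.638, 0.974, 0.951 and 0.514). Cyp26b1, which degrades retinoic acid, read 23.9 and 131 in sham, 52.8 and 27.2 at 1 h, 63.7 and 83.1 at 4 h, 112 and 43.1 at 8 h, and 29.9 and 37.4 at 24 h on rc_AA892066_at, with log2 changes of -0.66, 0.07, 0.01 and -0.91 at 1, 4, 8 and 24 h (SE 0.65, adjusted p 0.769, 0.974, 0.998 and 0.454). In all 3, the arrays of at least 1 group differed by over 2-fold, and at these levels the changes could not be told from that spread.

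The 16 members that were not tested read 1.3 to 250.9, with 75 of their 160 values above the floor. They left 8 genes without a tested probe set: Cyp1a1, Cyp2g1, Cyp4b1, Cyp4f5, Cyp4f17, Cyp11a1, Cyp11b2 and Cyp19a1. Cyp2g1, a P450 of the nose, read 102 and 54.2 in sham, 26.2 and 20.9 at 1 h, 101 and 142 at 4 h, 51.1 and 56.7 at 8 h, and 77.1 and 94.3 at 24 h on M31931cds_s_at. Cyp4b1, mainly a lung enzyme, read 108 and 51.8 in sham, 138 and 32.3 at 1 h, 82.4 and 37.5 at 4 h, 50.1 and 58.6 at 8 h, and 109 and 52.2 at 24 h on M29853_at. Both 1 h arrays of Cyp2g1 were under the floor and were the lowest of the 10, and its 4 h arrays overlapped sham. For Cyp4b1 the 1 h arrays alone spanned 32.3 to 138.3, the full range of the 10 arrays.

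Genes that supply electrons and heme to P450s, or control their transcription, were taken from a list of 64, of which 48 were on the array and 46 tested. A gene was counted when any of its probe sets was called. At 1 h 1 gene rose and 2 fell, at 4 h 5 rose and 4 fell, at 8 h 3 rose and 1 fell, and at 24 h 3 rose and 10 fell. In the same order these were 2.17%, 10.9%, 6.52% and 6.52% of the 46 genes higher, against 1.05%, 2.64%, 1.85% and 4.17% of all 3143 genes with a tested probe set, counted the same way. Lower were 4.35%, 8.70%, 2.17% and 21.7%, against 0.700%, 2.23%, 2.35% and 7.48%. The listed genes had more tested probe sets (1.70 a gene against 1.38), which makes a call likelier under this way of counting. By probe set, 7 of 78 were called higher at 24 h (8.97%, against 3.94% of all) and 15 lower (19.2%, against 6.34%). The median log2 change of the list was -0.04, -0.06, -0.08 and -0.23 at the 4 times, against 0.01, -0.04, -0.10 and -0.04 over all tested probe sets.

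Among the electron donors, Por, which passes electrons to every P450 of the endoplasmic reticulum, rose at 4 h and at 24 h; it lies outside the naming rule and was chosen after its values were seen. E01524cds_s_at read 1244 and 1355 in sham, 1449.7 and 1763 at 1 h, 2564 and 3065 at 4 h, 1203 and 1368 at 8 h, and 2751 and 2502 at 24 h. The 4 h and 24 h arrays were the highest of the 10, and the 8 h arrays overlapped sham. The log2 change was 1.11 at 4 h (SE 0.18, adjusted p = 0.0177) and 1.01 at 24 h (SE 0.18, adjusted p = 0.0155). At 24 h all 3 Por probe sets were called (log2 changes 0.87 to 1.42) and at 4 h 2 of 3. Each Por call was lost without either sham array and without at least 1 array of its own burn time (up to 0.188 at 4 h and 0.131 at 24 h). The 4 h call of rc_AI137856_s_at was lost without any 8 h or 24 h array as well, and the 24 h call of M10068mRNA_s_at without any 4 h array. Cyb5r3 and Fdx1, chosen likewise, were called lower at 24 h on some of their probe sets. Cyb5r3, a reductase that serves cytochrome b5, was called on 2 of 5 (log2 changes -1.03 on D00636cds_s_at and -1.36 on rc_AA963839_s_at, adjusted p = 0.0101 and 0.0116). The first of these calls was lost without the second sham array, or without either 24 h array (up to 0.0593), and the other without the second sham or the second 24 h array (up to 0.0685). Fdx1, which carries electrons to mitochondrial P450s, was called on D50436_at (log2 change -1.13, SE 0.16, adjusted p = 0.00651), which held without each array, and not on rc_AI044488_at (log2 change -0.80, SE 0.24, adjusted p = 0.0865). The other 3 tested donors and helpers were not called.

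Both enzymes at the ends of heme turnover rose. Alas1, which starts heme synthesis, read 702 and 1202 in sham, 3141 and 2637 at 1 h, 6789 and 6249 at 4 h, 3179 and 2179.7 at 8 h, and 1145 and 1102 at 24 h on J03190_at. Every 1 h, 4 h and 8 h array was above both sham arrays; the rise at 8 h was 2.87-fold (log2 change 1.52, SE 0.29, adjusted p = 0.0435) and that at 4 h 7.09-fold (log2 change 2.83, SE 0.29, adjusted p = 0.00229). The 8 h call was lost without any array other than the second sham array (up to 0.162), and J03190_g_at was called at 4 h but not at 8 h. Hmox1, which breaks heme down, read 249 and 154 in sham, 397 and 374 at 1 h, 2663 and 2984 at 4 h, 469.9 and 516 at 8 h, and 1518 and 1714 at 24 h on J02722cds_at. It was above sham in every burn array and rose 14.4-fold at 4 h (log2 change 3.85, SE 0.24, adjusted p = 0.000311), 2.51-fold at 8 h (log2 change 1.33, SE 0.24, adjusted p = 0.0361) and 8.23-fold at 24 h (log2 change 3.04, SE 0.24, adjusted p = 0.000685). The 8 h call was lost without any array other than the first sham array (up to 0.13), and the others held without each array. A second probe set, rc_AI179610_at, was called at the same 3 times. The other 5 tested heme genes were not called.

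Of 23 tested regulators, Dbp, a clock-driven activator of several P450 genes, fell at 1, 4 and 8 h. J03179_at read 403 and 584 in sham, 212 and 184 at 1 h, 34.2 and 32.6 at 4 h, 168 and 205 at 8 h, and 291 and 254 at 24 h. Both 4 h arrays were under the floor, so the fall at 4 h was at least 13.3-fold (adjusted p = 0.00027), and on J03179_g_at at least 33.4-fold (adjusted p = 0.000213). The log2 change of J03179_at was -1.30 at 1 h (SE 0.22, adjusted p = 0.0466) and -1.39 at 8 h (SE 0.22, adjusted p = 0.025). The 1 h call was lost without any array other than the first sham array (up to 0.231), and J03179_g_at was not called there. The 8 h call was lost without the second sham array or any 1 h, 4 h or 8 h array (up to 0.104); that of J03179_g_at (log2 change -1.99, SE 0.28, adjusted p = 0.0185) was lost without the second sham or the second 8 h array (up to 0.0824). Foxa2, a liver transcription factor, read 545 and 434 in sham, 209.5 and 230.0 at 1 h, 83.5 and 94.3 at 4 h, 382 and 419 at 8 h, and 122 and 162 at 24 h on L09647_at. It fell 5.48-fold at 4 h (log2 change -2.45, SE 0.20, adjusted p = 0.000923), and the 4 h arrays were the lowest of the 10. At 24 h it was 3.47-fold lower (log2 change -1.79, SE 0.20, adjusted p = 0.00295). Foxa3, Cebpb and Onecut1 lie outside the naming rule and were chosen after their values were seen. Foxa3 was called higher at 24 h on both probe sets by limma (log2 changes 1.75 and 1.34, adjusted p = 0.0054 and 0.00461). Cebpb was called higher at 4 h on X60769mRNA_at alone (log2 change 1.02) and lower at 24 h on both probe sets (-0.70 and -0.72). Onecut1 was called lower at 4 h and 24 h (-1.54 and -1.10). Both 24 h calls of Cebpb were lost whichever array was left out, after quantile normalization and with the replicate number blocked. The 4 h call of Cebpb and both Onecut1 calls were lost without either sham array and without at least 1 array of their own burn time.

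Nr0b2 (Shp), a repressor in bile acid signalling, fell at 1 h and at 24 h. D86745exon_s_at read 726 and 651 in sham, 165 and 79.4 at 1 h, 359 and 425 at 4 h, 445 and 539.9 at 8 h, and 26.4 and 32.6 at 24 h, a 6-fold fall at 1 h (log2 change -2.59, SE 0.33, adjusted p = 0.0126) that was lost without either sham array (up to 0.0715). Both 24 h arrays were under the floor, so the 24 h fall on this probe set was at least 18.9-fold (adjusted p = 0.000649). The other 2 probe sets were called at 24 h too, with falls of 14.9-fold on D86580_at and 3.75-fold on D86745cds_s_at. Neither was called at 1 h by limma (3.1-fold and 1.82-fold lower, adjusted p = 0.189 and 0.207). Cebpa, a C/EBP factor of many P450 promoters, read 739 and 849 in sham, 781 and 889 at 1 h, 668 and 649 at 4 h, 746 and 700.3 at 8 h, and 214 and 194 at 24 h on X12752_at. The 24 h arrays stood alone at the bottom, a 3.9-fold fall (log2 change -1.96, SE 0.16, adjusted p = 0.000772). Ahr, the aryl hydrocarbon receptor, was tested on 1 probe set and not called (adjusted p 0.392 to 0.996), and Nr1i2 and Nr1i3, the pregnane X and constitutive androstane receptors, were not analysed here.

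Of the 10 other oxidising enzymes tested, Adh4, an alcohol dehydrogenase, fell at 4 h and 24 h. X90710_at read 1388 and 1499.9 in sham, 1206 and 1299 at 1 h, 398 and 357 at 4 h, 1244 and 1230.0 at 8 h, and 261 and 259 at 24 h, 3.83-fold lower at 4 h (log2 change -1.94, SE 0.15, adjusted p = 0.000612) and 5.55-fold lower at 24 h (log2 change -2.47, SE 0.15, adjusted p = 0.000274). The 24 h arrays were the lowest and the 4 h arrays came next. Ephx2, the soluble epoxide hydrolase, read 155 and 172 in sham, 419.9 and 372 at 1 h, 345 and 378 at 4 h, 281 and 315 at 8 h, and 197 and 220.0 at 24 h on X65083cds_at. It rose at 1 h (log2 change 1.28, SE 0.16, adjusted p = 0.0126), at 4 h (log2 change 1.14, SE 0.16, adjusted p = 0.0098) and at 8 h (log2 change 0.87, SE 0.16, adjusted p = 0.0406), but its other 3 probe sets were not called. The 1 h call was lost on dropping any array of sham or 1 h (reaching 0.0968), the 4 h call without the first sham or the second 4 h array (up to 0.066) and the 8 h call whichever array was left out (up to 0.172).

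**Figure D5:**
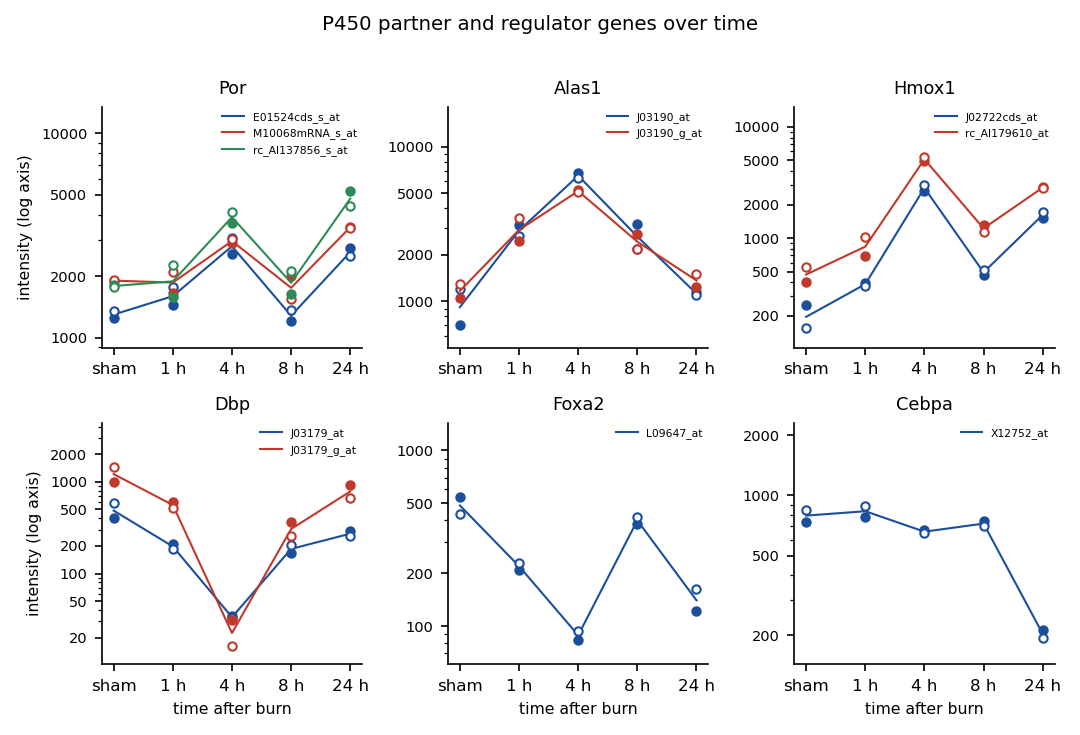
Intensity (log axis) of 6 partner and regulator genes in sham and at 1, 4, 8 and 24 h, spaced evenly; filled and open points are the first and second array of a group and lines join the means of their log values. Por, Alas1 and Hmox1 are high at 4 h, Dbp and Foxa2 are lowest at 4 h, and Cebpa is lowest at 24 h, at 213.5 and 193.8.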

How the data were processed

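The deposited values, from the authors' value table, were linear intensities of 8799 probe sets on 10 arrays. No log had been taken, and the authors' scaling was read from the values: the mean after removal of 2% at each end was 500.9 to 501 on every array. Array medians in sham, 1, 4, 8 and 24 h order were 126.4 and 119.9, 121.7 and 131.1, 118.9 and 121.9, 100.1 and 120.9, and 114.5 and 123.5. Software, background correction and any probe centring are not given in the sources used here. Precision is limited by the number of arrays.

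Here values below a floor of 36.4, taken from the 25th percentiles of the arrays (their median), were raised to the floor, log2 was taken, and the 5285 probe sets above their array's median on at least 2 arrays were fitted with limma 3.58.1 in R 4.3.3, 5 groups in 1 model with 5 residual degrees of freedom. The fit was tested on simulated data. Genes were named from the probe table (7018 probe sets with 1 symbol, 308 with several, 1473 not listed), and all 41 member genes had the same symbol in the RefSeq table. Values on every array were given for members called against sham or by the F test whose 2 burn arrays lay outside the sham range on 1 side. They were also given for the probe set of highest mean in subfamilies without a call, except that Cyp11a1, Cyp11b2 and Cyp19a1 were given by range. Cyp1a1, Cyp2c12, Cyp2c6v1, Cyp3a2 and M26127_s_at of Cyp1a2 lie outside this rule and were given with their values known. Listed partner genes were named when called, at most 4 a time by smallest p. The members, lists and rules were chosen with earlier results of these data known. Same-numbered arrays of 2 groups deviated together only weakly (correlations 0.01109 to 0.1697 over 10 pairs of groups), so the numbers were not taken to pair arrays. Each result was also computed after quantile normalization; with the floor moved to the 10th percentile (13.65) or to the 50th (121.3); without the filter; with limma's intensity trend and robust variance; with the replicate number blocked; on the arrays of the compared groups alone; on probe sets whose names carry no letter code; and with each array dropped in turn, the remaining array of its group then taking its spread from the other groups.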

Additional observations from a re-analysis of the deposited data

Results flagged for a closer look

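Differences between neighbouring times were tested as contrasts of the same limma model, and those called among the P450 members are collected here as log2 changes, later time minus earlier time. From 1 h to 4 h, Cyp2c11 fell on all its probe sets (-1.62 on M18363cds_s_at, -1.52 on X79081mRNA_f_at and -1.17 on J02657_s_at), and Cyp2a2 (-1.06 on J04187_at), Cyp2c13 (-0.92 on J02861mRNA_s_at) and Cyp2c7 (-0.79 on M14775_s_at) fell with it. Cyp17a1 (1.43 on M21208mRNA_s_at) and Cyp1a2 (0.84 on K03241cds_s_at) rose over the same step.

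From 4 h to 8 h, Cyp1a2 rose on 2 probe sets (0.63 on E01184cds_s_at and 0.70 on K03241cds_s_at), as did Cyp2c13 (0.72 on J02861mRNA_s_at) and Cyp2c6v1 (0.86 on M14776_f_at). Cyp2c12 (-1.37 on J03786_s_at), Cyp2e1 (-0.72 on S48325_s_at) and Cyp4a8 (-1.0 on M37828_at) fell.

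From 8 h to 24 h, Cyp2c11 rose on all its probe sets (1.75 on M18363cds_s_at, 1.34 on J02657_s_at and 1.13 on X79081mRNA_f_at). Cyp17a1 (-1.30 on M21208mRNA_s_at), Cyp2j3 (-1.24 on U40004_s_at) and Cyp1a2 (-0.77 on E01184cds_s_at) fell. The cause of these steps was not tested.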

How the results depend on the processing

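Across the 42 P450 calls, direction was kept under every setting tried. All 42 passed the threshold with either other floor (10th or 50th percentile) and with an intensity trend and robust variance, 41 with no filter, 38 with the replicate block and 35 after quantile normalization. The settings moved the counts of called members, given here in the order 1, 4, 8 and 24 h against sham and then 1 h to 4 h, 4 h to 8 h, 8 h to 24 h and the F test (4, 1, 7, 9, 8, 7, 6 and 16 as reported). With an intensity trend and robust variance they were 10, 2, 18, 18, 18, 20, 19 and 31. With only the groups compared they were 0, 0, 0, 0, 2, 0 and 1, with 2 residual degrees of freedom in each fit; the F test over the 4 burn times has no such fit. Probe sets without a letter code alone, 11 members, gave 1, 0, 0, 1, 1, 1, 0 and 1. No filter gave 7 at 1 h, 13 from 4 h to 8 h and 14 from 8 h to 24 h; the 50th percentile floor gave 12 from 4 h to 8 h and 10 from 8 h to 24 h; quantile normalization gave 3 from 4 h to 8 h, 0 higher and 3 lower. Leaving out 1 array gave 1 to 4, 0 to 1, 0 to 3, 1 to 9, 3 to 7, 0 to 1, 4 to 7 and 7 to 12. At 8 h the count was 0 without either sham or either 8 h array, and from 4 h to 8 h it was 0 without either array of sham, 8 h or 24 h.

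The array numbers were not taken to pair the samples, but the weak correlations given above do not exclude a batch shared by same-numbered arrays. With the replicate block, counts were 4, 1, 5, 9, 9, 6, 7 and 17, with 4 of the 42 calls lost and 3 gained.

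Partner genes called at 1, 4, 8 and 24 h (3, 9, 4 and 13 as reported) became 0, 5, 0 and 6 with only the groups compared. They became 6, 17 and 10 at 1, 4 and 8 h with the 50th percentile floor, 5 at 1 h and 12 at 8 h with the intensity trend, 5 at 1 h after quantile normalization, 14 at 4 h with no filter, and 1 at 1 h and 2 at 8 h without letter-coded probe sets. Leaving out 1 array gave 1 to 2, 5 to 10, 0 to 3 and 8 to 12. The cause of these moves was not tested. Cyp21a1 and Cyp26b1, read near the floor on some arrays, differed between arrays of a group. So did Cyp24a1, although Z28351exon_s_at stayed above the floor, at 92.6 to 401.2. Such differences limit what could be called there.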
